A study of Mus musculus with 18 samples.

Results

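The genes described here are the mouse translation initiation factors, 49 of the 47069 genes in the deposited tables. They were taken by name, as every protein-coding gene whose GENCODE vM21 symbol starts with Eif and a digit from 1 to 6, without the eIF2 kinases, Eif4enif1 and Y-linked genes. No measured value entered the choice. RNA was sequenced from single oocytes of C57BL/6JAusb mice at 2 stages. Germinal vesicle (GV) oocytes are immature, with the nucleus still whole, and oocytes at metaphase II (MII) are mature eggs. Each stage had 3 conditions: control mice aged 4 weeks (young), control mice aged 12 months (aged), and mice of 12 months given NMN in their drinking water, 2 g/L over 4 weeks. NMN (nicotinamide mononucleotide) is a compound that cells turn into NAD, and the controls of both ages did not receive it. By the labels' protocol each library holds the RNA of 1 oocyte after the nucleus had been spun out, so the values are meant to describe cytoplasmic RNA. Only GV oocytes have a whole nucleus, so what this step removed may differ between the stages.

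Of 18 deposited libraries, 1 was a copy of another and 1 held 5008 counts, which left 16 oocytes. GV oocytes numbered 2 from young controls, 2 from aged controls and 3 from aged NMN mice, and each MII condition had 3. The labels name no animals, so oocytes of a group may share one, and a group counts as a single sample. Groups were therefore not tested against each other. Every difference below describes these oocytes, and the ± values are the SD between them. Totals ran from 2756183 to 5586857 counts, which puts a floor of 3 counts between 0.537 and 1.09 CPM (counts scaled to equal library totals). Levels are CPM scaled by TMM, a method that corrects for differences in composition, and a share of a library cannot tell fewer copies of one mRNA from more of the others. Some titles name a batch 2 with a further number, and these are called batch 2 titles here. The titles of MII aged NMN 1 and 2 name batch 1 and batch 2 with no further number. Both libraries were placed with the other titles. The copied library was GV young control 1, which also carried a batch 2 title. It was placed with those titles, and fractional counts were found in 14.5% of its detected genes, against 13.1% to 14.6% in the other GV libraries with a batch 2 title and 20.9% to 23.6% in those without one.

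The oocyte label was checked with 10 oocyte markers, whose summed level was 15013 to 28995 scaled CPM in GV and 9310.0 to 42402 in MII oocytes. All 10 were detected in every GV oocyte and 7 to 10 in MII oocytes, and Zp3, a zona pellucida protein, was at 0 in 1 of the 16. The 15 cumulus and granulosa markers summed to 8.84 to 85.0 scaled CPM in GV and to 0 to 316 in MII oocytes. Immune markers summed to 0 to 237 in GV and 0 to 42.9 in MII oocytes, and endothelial ones to 0 to 15.5 and 0 to 61.7. Theca and stroma markers summed to 0 to 5.70 and 0 to 15.9. The erythroid markers were at 0 in every GV oocyte and at 0 to 29.8 in MII oocytes, highest in MII aged NMN 2. The MII aged NMN libraries 1 and 2 stood apart, with 43.0% and 33.2% of their counts on mitochondrial genes against 2.76% to 24.4% in the other 14 libraries. Most counts and ratios that use MII aged NMN oocytes are given with and without these libraries, and without them rest on the single oocyte MII aged NMN 2-1.

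Initiation is the step at which a ribosome is placed on the start codon of an mRNA. The GTPase eIF2 brings the initiator tRNA to the small ribosomal subunit, where eIF1, eIF1A, eIF3 and eIF5 hold it ready for scanning, and eIF2B recharges eIF2 with GTP afterwards. The mRNA is caught by its cap through eIF4E, which sits on the scaffold eIF4G beside the helicase eIF4A, and eIF5B then joins the large subunit. Growing oocytes store mRNA, transcription stops before maturation, and from then until the embryonic genome turns on the oocyte makes protein from that store. Translation of stored messages is switched on or off in a set order during meiosis, largely through the length of the poly(A) tail.

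Between 41 and 47 of the 49 genes had at least 1 count in each GV oocyte. In MII oocytes the number ran from 21 to 46, and the lowest were the 3 MII aged NMN oocytes with 31, 21 and 35. Thinning every library to 2756183 counts left them at 30.97, 20.4 and 34.7. The filter on low counts kept 12161 genes, 47 of them initiation factors. Eif5a2, a paralog of eIF5A, and Eif4ebp2, an inhibitor of eIF4E, were not kept and reached at most 2.71 and 2.77 scaled CPM. The other inhibitors were also low. Eif4ebp1 was at 0 and 13.05 scaled CPM in GV young, 5.26 and 13.00 in GV aged and 9.82, 4.88 and 0 in GV aged NMN oocytes. Among MII oocytes it was at 0, 1.09 and 3.92 in young controls, 10.03, 0.751 and 13.8 in aged controls and 0, 0 and 0.313 in aged NMN mice. Eif4ebp3 had counts in 2 GV oocytes only, the second GV young control at 3.39 and the second GV aged control at 4.17 scaled CPM.

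**Figure D1:**
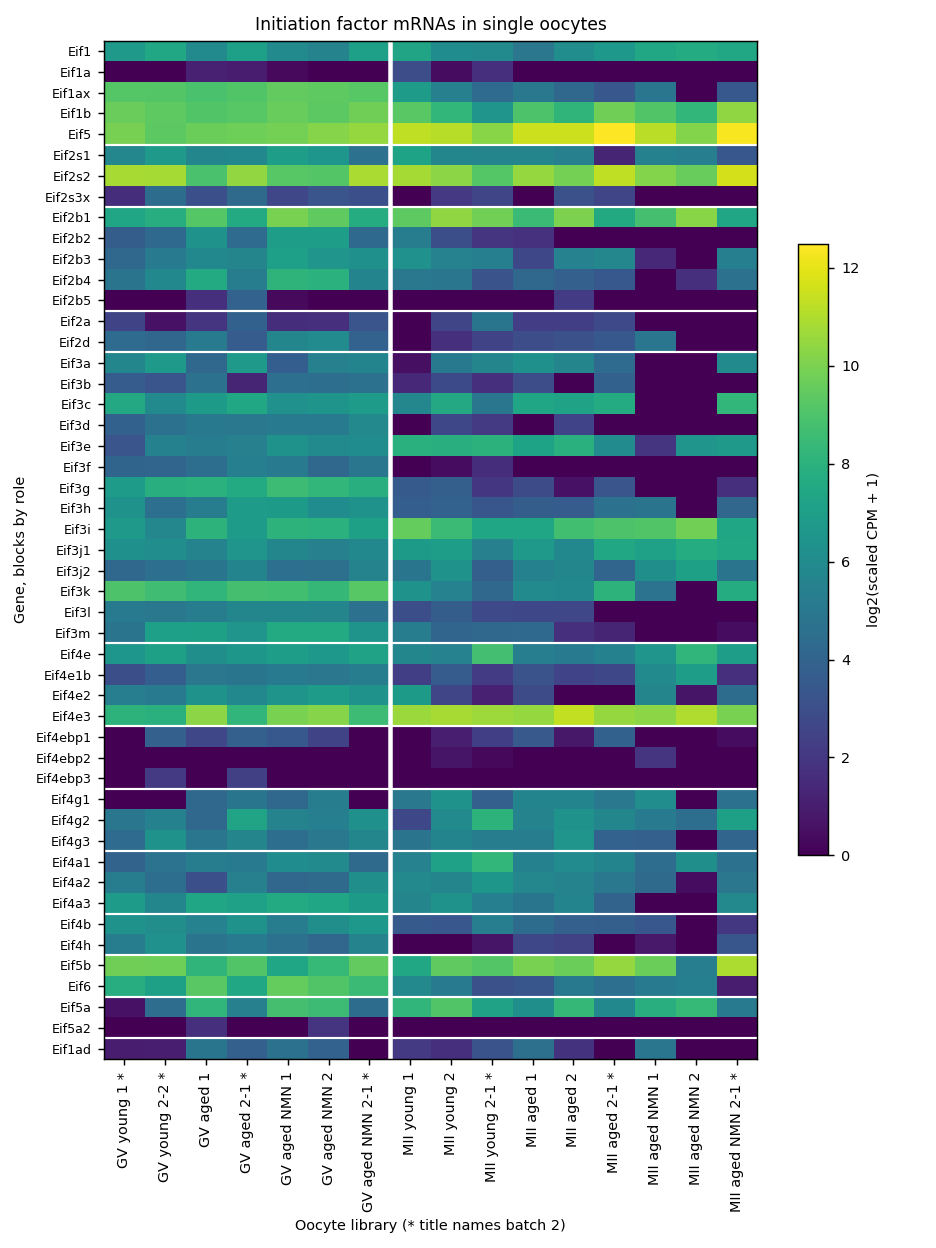
Level of each initiation factor mRNA in each oocyte, as log2 of scaled CPM + 1 (colour). Columns are the 16 oocytes, with GV to the left of the white line and MII to its right, and rows are genes in blocks by role. An asterisk marks a batch 2 title with a further number, so MII aged NMN 2 has none. Eif5, Eif1b and Eif2s2 are bright in all columns, and the column of MII aged NMN 2, with 21 genes detected, has the most dark cells.

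Levels of different genes are compared in TPM, which corrects for transcript length. In GV oocytes the highest were Eif1b, a close relative of the start codon selection factor eIF1, at 777 to 934 (median 849.7) TPM, and Eif3k, a small eIF3 subunit, at 558 to 839.7 (median 651) TPM. They were followed by Eif2s2, the beta subunit of eIF2, at 202 to 616 (median 566) TPM, and by Eif5, the factor that makes eIF2 hydrolyse its GTP, at 214 to 471 (median 342) TPM. In MII oocytes the order differed. Eif5 stood first at 234 to 1808 (median 1248) TPM, then Eif1b at 213 to 1687 (median 568), Eif2s2 at 159 to 1192 (median 514) and Eif3i, an eIF3 subunit, at 169 to 642 (median 504) TPM. Within each stage the ranges of neighbours in this order overlapped.

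Maturation compares MII with GV oocytes. A gene is called past 2-fold when the log2 ratio of group means, each with 1 CPM added, is at least 1 or at most -1. In young controls 14 of 47 initiation factors (29.8%) were past 2-fold higher in MII and 18 (38.3%) past 2-fold lower, against 36.3% and 25.8% of all genes kept. In aged controls 4 (8.51%) were higher and 23 (48.9%) lower, against 16.9% and 35.8% of all genes; without GV aged control 1 or 2-1, 7 or 9 were higher. In aged NMN mice 6 (12.8%) were higher and 24 (51.1%) lower, against 16.9% and 46.7%. Both GV young libraries carry a batch 2 title, and of the MII young libraries only 2-1 does. Stage and title are thus partly mixed in young controls, and the part of the title was not tested. Within batch 2 titles 13 were higher and 22 lower in young controls, 5 and 26 in aged controls and 6 and 21 in aged NMN mice. All-gene shares were not computed for these counts. Oocytes of the stages did not overlap for 12 initiation factors higher (25.5%) and 16 lower (34.0%) in young controls, against 17.5% and 16.3% of all genes. For aged controls these were 6 (12.8%) and 20 (42.6%), against 10.8% and 27.4%, and for aged NMN mice 2 (4.26%) and 20 (42.6%), against 3.68% and 27.1%. The median log2 ratio of the initiation factors was -0.51 in young controls, -0.84 in aged controls and -1.09 in aged NMN mice, beside 0.35, -0.29 and -0.82 for all genes kept. The scaling moved the all-gene medians by up to 0.24. With RLE size factors the median of all genes in young controls was 0.10, and that of the initiation factors went from -0.51 to -0.85. Under TMM, RLE and library totals alike, 16 initiation factors lay above and 31 below the all-gene median in young controls. Without the MII aged NMN libraries 1 and 2, 7 initiation factors were higher and 27 lower in aged NMN mice, against 16.7% and 52.3% of all genes. Their median was then -1.43, beside -1.11 for all genes. Without overlap 10 were then higher and 24 lower, 21.3% and 51.1%, against 22.5% and 39.8% of all genes.

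Markers of cumulus and granulosa cells, which surround the oocyte, also differed in maturation. Their 15 genes summed to 27.5 and 59.2 scaled CPM in GV young and to 173, 48.2 and 316 in MII young oocytes, with 2 and 3 of them detected against 5, 9 and 10. Of the 9 kept by the filter, 7 were past 2-fold higher in MII oocytes of young controls, 4 in aged controls and 1 in aged NMN mice. Of all genes kept 36.3%, 16.9% and 16.9% were. In aged controls the sums were 22.8 and 21.6 in GV and 95.5, 21.5 and 17.4 in MII oocytes, and in aged NMN mice 84.99, 26.9 and 8.84 in GV and 14.6, 0 and 56.0 in MII oocytes. Amh, Amhr2 and Foxl2 had no count in any oocyte. The part of these markers in the differences was not tested.

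In each of the 3 conditions 13 initiation factors (27.7%) were past 2-fold lower in MII oocytes, against 15.8% of all genes, and Eif5 alone was past 2-fold higher, against 3.58%. The 13 were Eif1ax, Eif2d, Eif2s3x, Eif3d, Eif3f, Eif3g, Eif3h, Eif3k, Eif3l, Eif3m, Eif4b, Eif4h and Eif6. The count was 13 without the MII aged NMN libraries 1 and 2, 14 with RLE size factors and 11 in TPM, while that of Eif5 was lost with RLE size factors and in TPM. Within batch 2 titles the count was also 13, but of other genes: Eif2d, Eif3k and Eif4b were not among them, Eif2b2, Eif4e1b and Eif4e2 were, and Eif4e3 in place of Eif5 was the gene past 2-fold higher in each condition. For 8 genes (17.0%; 6.98% of all genes) every one of the 9 MII oocytes lay below every one of the 7 GV oocytes. They were Eif1ax, Eif3d, Eif3f, Eif3g, Eif3k, Eif3l, Eif4h and Eif6. No initiation factor had every MII oocyte above every GV oocyte (0.271% of all genes). With library totals in place of TMM the number lower was 8, and in TPM it was 7, without Eif1ax. Within batch 2 titles (3 MII, 4 GV oocytes) 15 initiation factors (31.9%) were lower without overlap, against 13.8% of all genes. Within the other titles (6 MII, 3 GV) 16 (34.0%) were, against 21.4%. Both counts had to hold the 8, since a gene without overlap over all oocytes has none in any part of them.

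**Figure D2:**
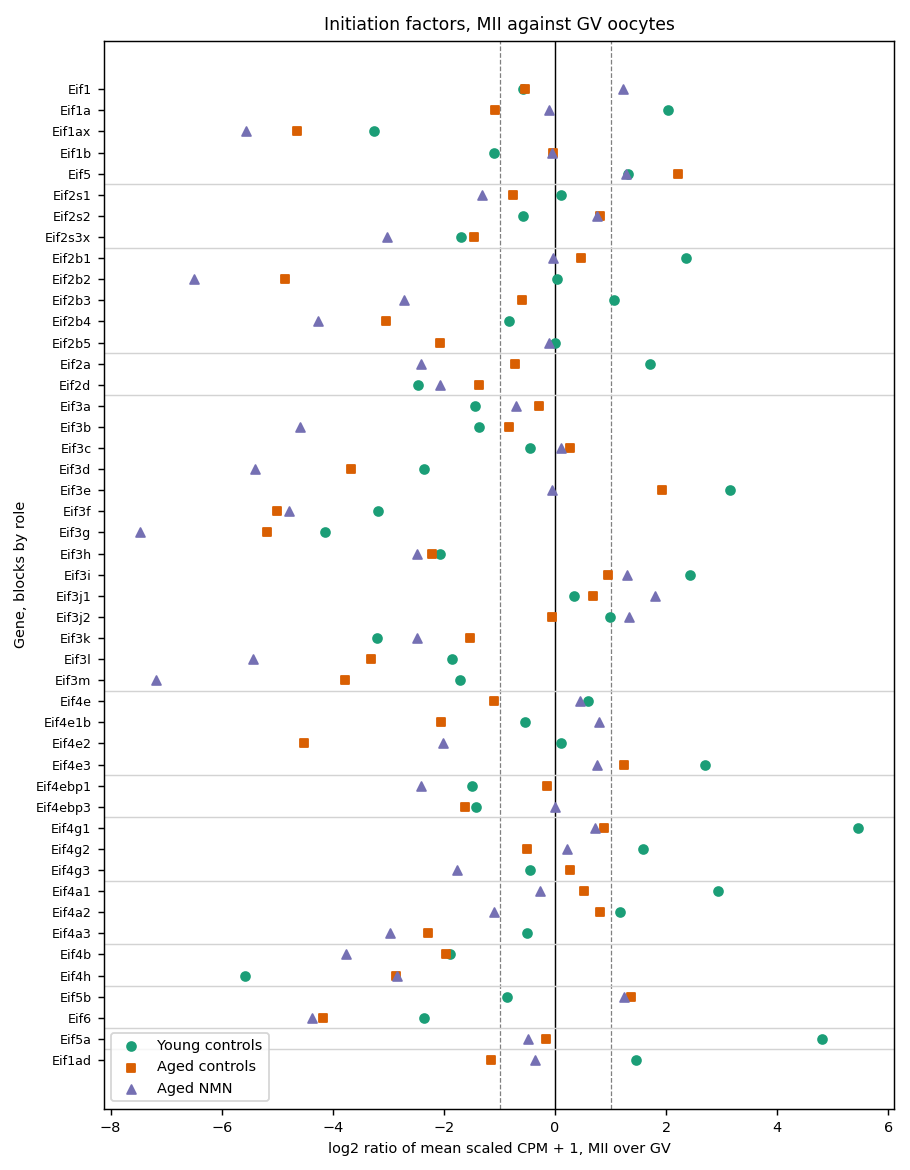
Log2 ratio of MII over GV group means (scaled CPM + 1) for the 47 initiation factors kept, with genes by role on the vertical axis and 1 symbol per condition; dashed lines mark 2-fold. All 3 symbols lie left of the lower line for 13 genes and right of the upper line for Eif5 alone.

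Stored oocyte mRNAs that are translated at maturation often carry a cytoplasmic polyadenylation element close to their end, so the last 100 bases of the annotated 3′ untranslated region were searched on the transcript strand for TTTTAT or TTTTAAT, and for the poly(A) signal hexamers AATAAA or ATTAAA. One GENCODE transcript per gene was read, and 44 initiation factors had a region of that length. An element was found in 4 of them (9.09%), Eif1a, Eif1ax, Eif3j2 and Eif4e3, against 20.3% of 10161 genes kept, and a hexamer in 35 (79.5%) against 81.9%. Among all genes past 2-fold higher in MII oocytes 25.2%, 26.9% and 26.9% held an element in young controls, aged controls and aged NMN mice, and among those past 2-fold lower 13.4%, 12.2% and 16.0%. Of the initiation factors past 2-fold higher in young controls, 2 of 13 with such a region held one, and of those lower 1 of 15. The annotated end need not be the end used in oocytes.

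Printed here are 30 bases of GRCm38 at 10 of these ends. They are examples from genes with marked differences in maturation, and other such genes, Eif2b2 and Eif3d among them, are not printed. Capitals mark elements and hexamers. The first 3 start at an element. Eif4e3 (chr6:99625203-99625232, minus strand) had a higher mean in MII oocytes of all 3 conditions and Eif1ax (chrX:159389899-159389928, plus strand) a lower one, so genes with the same element lay on opposite sides. Their ends differ otherwise, since Eif4e3 has AATAAA 12 bases from its end and Eif1ax no hexamer in the last 100 bases. Eif3m (chr2:104999689-104999718, minus strand), past 2-fold lower in every condition, carries an element 63 bases from the end of a region too short for the count, and that region holds no hexamer.
Eif4e3: TTTTATttttgaactttatttaaagcattt
Eif1ax: TTTTATgctgcacaaatatatgtataagtg
Eif3m: TTTTATgaaaatgattttgttcgttgagaa
The next 4 end in a hexamer, hold no element in the last 100 bases and belong to genes that were higher in MII oocytes of young controls: Eif3e (chr15:43250073-43250102, minus strand), Eif3i (chr4:129591991-129592020, minus strand), Eif4g1 (chr16:20692839-20692868, plus strand) and Eif5a (chr11:69916739-69916768, minus strand).
Eif3e: ttgctacaaattttggagaatttgAATAAA
Eif3i: ctcacagaaggttttagactgagaAATAAA
Eif4g1: ggggggggcacggtgcctgtaattATTAAA
Eif5a: cacatttgttaaaaatcaaacctgAATAAA
The last 3 belong to genes with every MII oocyte below every GV oocyte: Eif3k (chr7:28971388-28971417, minus strand, of which the first 11 bases are coding sequence and stop codon, since the region is shorter), Eif4h (chr5:134619894-134619923, minus strand) and Eif6 (chr2:155819853-155819882, minus strand).
Eif3k: cctcccagtaagccagtgtgcgttAATAAA
Eif4h: tggtattttgtgaatgatcttttaAATAAA
Eif6: ttctgctatcttgtgccccaccccATTAAA
The 3′ untranslated regions of Eif2b4, Eif3k, Eif3i, Eif3g and Eif3m were annotated at 43, 35, 93, 78 and 65 bases, too short for the 100-base count. These short ends thus occur in genes past 2-fold lower in MII oocytes of every condition (Eif3g, Eif3k, Eif3m) and in one that was higher in young controls (Eif3i).

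Messages for the translation machinery often start with a C followed by pyrimidines, a terminal oligopyrimidine start. Of 37 initiation factors with a RefSeq promoter (GRCm38.p6), 2 (5.41%) had a C at the annotated start followed by at least 4 C or T bases, against 3.01% of 27025 genes. They were Eif2s3x and Eif3f, both among the 13 genes past 2-fold lower in MII oocytes in every condition.

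Among the start codon factors, Eif1ax and Eif5 differed in opposite directions. Eif1ax (chrX:159372178-159389928, plus strand), an X-linked gene for eIF1A, which holds the scanning complex open, was at 577 and 563 scaled CPM in GV young, 478 and 537 in GV aged and 703, 665 and 602 in GV aged NMN oocytes. MII levels were 113, 42.3 and 19.4 in young controls, 30.8, 17.5 and 9.45 in aged controls and 28.9, 0 and 9.69 in aged NMN mice. All MII oocytes lay below all GV oocytes, with log2 ratios of -3.27, -4.65 and -5.57. Without MII young control 1 the ratio in young controls was -4.16, and within batch 2 titles -4.81 in young and -5.69 in aged controls. With NMN it was -6.81 without MII aged NMN 1 and -5.94 without both libraries 1 and 2. In TPM, which follows the transcript lengths the authors' program assigned, the ratios were -0.95, -1.68 and -3.84. Eif1a, the second gene for eIF1A, had at most 6.69 scaled CPM in any oocyte.

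Eif5 (chr12:111538016-111546752, plus strand) was at 974 and 646 scaled CPM in GV young and 2525, 2247 and 1229.9 in MII young oocytes. It was at 832 and 835 in GV aged and 2931, 2999 and 5715 in MII aged oocytes. With NMN it was at 949, 1187 and 1477 in GV and 2359, 1134 and 5215 in MII oocytes. The groups did not overlap in young and aged controls, with log2 ratios of 1.30 and 2.22. With NMN they did, with a log2 ratio of 1.27, and MII aged NMN 2 lay at 1134 within the GV range; without libraries 1 and 2 the ratio was 2.11. Eif1b had log2 ratios of -1.09, -0.04 and -0.06 in the 3 conditions, the last of which was 0.82 without libraries 1 and 2.

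Eif1, the start codon gatekeeper itself, was past 2-fold higher in MII than in GV oocytes of aged NMN mice, at 178, 203 and 177 against 59.6, 47.5 and 131 scaled CPM, a log2 ratio of 1.22. This was 0.96 without GV aged NMN 2, 0.99 with library totals, 0.44 within batch 2 titles, 1.15 without MII aged NMN 1 and 2, and -0.01 in TPM. In young and aged controls the ratios were -0.58 and -0.54; the difference between conditions was not tested. Of the 31-base stretches of Eif1 transcripts, 37.2% also occur in transcripts of other genes, so its counts depend on how the authors' counting shared such reads.

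The eIF2 subunits differed in level and in direction. Eif2s2 stayed abundant, at 1836 and 1806 scaled CPM in GV young and 1802, 1287 and 579 in MII young oocytes. Eif2s1, the alpha subunit that stress kinases phosphorylate, was at 54.3 and 103 and 152, 52.9 and 49.97. Eif2s3x, the X-linked gamma subunit that binds the initiator tRNA, reached 20.6 scaled CPM at most in GV and 7.51 in MII oocytes, where it was at 0 in 5 of 9. Its log2 ratios in maturation were -1.70, -1.45 and -3.03, and 36.9% of its 31-base stretches occur in other genes as well.

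The exchange factor eIF2B has 5 genes, and 1 of them held most of the family's TPM in MII oocytes. Eif2b1, the alpha subunit, made up 46.4% to 63.1% in GV oocytes (median 55.4%) and 66.3% to 99.8% in MII oocytes (median 92.0%). In this share all 9 MII oocytes lay above all 7 GV oocytes. A larger share need not be a higher level. In aged NMN mice the log2 ratio of Eif2b1 in maturation was -0.05, and -1.95 without MII aged NMN 1 and 2. Of the 5 genes 2 were past 2-fold higher in young controls and 0 in aged controls and aged NMN mice, against 36.3%, 16.9% and 16.9% of all genes. Eif2b2, the beta subunit, made up 11.9% to 16.0% in GV and 0 to 5.60% in MII oocytes. It was at 84.6 and 19.4 scaled CPM in GV aged and 2.46, 0 and 0 in MII aged oocytes, and at 123, 126 and 18.5 in GV and 0, 0 and 0 in MII aged NMN oocytes, so neither pair of groups overlapped. The log2 ratios were -4.86 and -6.49. The first was -3.48 without GV aged control 1, -5.56 without GV aged control 2-1 and -5.73 without MII aged control 1, and the second -4.28 within batch 2 titles. With no count in the 3 MII aged NMN oocytes, its pooled level there was at most 0.330 CPM (upper limit of an exact 95% Poisson interval, counting error only, before TMM scaling). In young controls Eif2b2 was at 11.8 and 18.3 in GV and 36.6, 7.00 and 2.68 in MII oocytes, which overlapped. Eif2b5, the catalytic subunit, had no count in 4 of 7 GV and 8 of 9 MII oocytes.

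The eIF3 complex, the scaffold on which the small subunit's factors assemble, showed the widest split. All 14 of its genes were detected in every GV oocyte. In MII oocytes 12, 14 and 14 were detected in young controls, 12, 12 and 11 in aged controls and 6, 4 and 10 in aged NMN mice. Of the 14, 2 were past 2-fold higher and 9 lower in young controls, 1 and 7 in aged controls, and 3 and 8 in aged NMN mice, with median log2 ratios of -1.58, -1.19 and -2.48. The shares of the 14 that were lower, 64.3%, 50% and 57.1%, stand beside 25.8%, 35.8% and 46.7% of all genes, and those higher, 14.3%, 7.14% and 21.4%, beside 36.3%, 16.9% and 16.9%. Without MII aged NMN 1 and 2 the counts in aged NMN mice were 2 and 8, with a median of -1.69.

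Eif3g (chr9:20894349-20898623, minus strand), an RNA-binding subunit that acts during scanning, was at 119 and 225 scaled CPM in GV young and 10.7, 12.9 and 2.89 in MII young oocytes. In aged controls it was at 247 and 199 and 6.16, 0.501 and 8.72, and in aged NMN mice at 378, 304 and 236 and 0, 0 and 2.19. The log2 ratios were -4.14, -5.19 and -7.47. The lowest GV oocyte was at 119 and the highest MII oocyte at 12.9. The ratios were -5.48, -4.37 and -6.21 within batch 2 titles. With NMN the ratio was -6.59 without MII aged NMN 1 and 2 and -8.26 without MII aged NMN 2-1. No stretch of 31 bases of Eif3g occurs in another gene. Its share of eIF3 TPM had a median of 18.9% in GV and 0.650% in MII oocytes.

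Eif3k (chr7:28971372-28981864, minus strand), which with Eif3l forms a peripheral pair of subunits, was at 506 and 399 scaled CPM in GV young and 81.2, 45.9 and 17.6 in MII young oocytes, a log2 ratio of -3.21 that was -3.79 without MII young control 1 and -4.61 within batch 2 titles. It had the largest share of eIF3 TPM in all 7 GV oocytes, 35.7% to 65.0%. In MII oocytes Eif3i had the largest share in 8 of 9, and Eif3k, at 38.6%, in MII aged NMN 2-1. Eif3l itself was at 32.7 and 31.3 in GV young and 6.90, 11.7 and 5.78 in MII young oocytes, and had no count in the 3 MII aged NMN oocytes against 51.9, 49.6 and 25.4 in GV. That is a pooled upper limit of 0.330 CPM before TMM scaling and a log2 ratio of -5.44, which was the same without MII aged NMN 1 and 2 and -4.72 within batch 2 titles.

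Eif3f, Eif3h and Eif3m form a module at the edge of the complex, and all 3 were past 2-fold lower in each condition. Eif3f (chr7:108934417-108942951, plus strand) was at 15.2 and 15.7 in GV and 0, 0.311 and 2.06 in MII young oocytes, and had no count in any of the 6 MII oocytes of aged mice against 21.6 and 40.97 in GV aged and 33.4, 17.6 and 29.2 in GV aged NMN oocytes. Eif3m was at 197, 195 and 86.9 in GV and 0, 0 and 0.313 in MII aged NMN oocytes (log2 ratio -7.19; -6.94 without libraries 1 and 2 and -6.07 within batch 2 titles), although 53.7% of its 31-base stretches occur in other genes. Eif3d, a subunit that can bind caps itself, was at 34.04, 33.1 and 57.3 in GV and 0 in all 3 MII aged NMN oocytes (log2 ratio -5.41, with or without libraries 1 and 2).

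Eif3e and Eif3i were higher in MII oocytes of young controls. Eif3e (chr15:43250058-43282719, minus strand), which links eIF3 to the mRNA side of the complex, was at 8.75 and 44.1 scaled CPM in GV and 245, 229 and 254 in MII young oocytes, a log2 ratio of 3.15 with no overlap. It was 2.44 without GV young control 1, 4.64 without GV young control 2-2 and 3.79 in TPM. In aged controls it was at 37.5 and 41.7 and 148, 246 and 63.3 (log2 ratio 1.92, and 0.59 within batch 2 titles). In aged NMN mice, at 84.99, 59.1 and 65.8 and 2.77, 90.6 and 108, the groups overlapped. A share of 42.0% of the 31-base stretches of Eif3e occurs in other genes, most of them in a processed pseudogene, Eif3s6-ps2.

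Eif3i (chr4:129591960-129600648, minus strand), which pairs with Eif3g on the Eif3b subunit, was at 102 and 52.97 in GV and 732, 366 and 166 in MII young oocytes (log2 ratio 2.42; 1.76 without MII young control 1 and 1.09 within batch 2 titles). These binding partners differed in opposite directions. With NMN, Eif3j1, a loosely bound subunit, was higher in MII oocytes, at 139.9, 214 and 174 against 52.3, 42.3 and 55.4 (log2 ratio 1.79, and 1.78 without libraries 1 and 2). Reads of Eif3j1 and its copy Eif3j2 are hard to part, since 94.3% of the 31-base stretches of Eif3j2 occur elsewhere, most in Eif3j1.

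Of the 4 cap-binding genes, Eif4e3, an unusual family member that holds the cap by a different grip, led the family in every oocyte. It made up 49.5% to 75.5% of the family's TPM in GV and 66.5% to 98.1% in MII oocytes. Eif4e3 (chr6:99625135-99666771, minus strand) was at 266 and 246 scaled CPM in GV young and 1581, 1848 and 1588 in MII young oocytes, a log2 ratio of 2.70 with no overlap. In aged controls it was at 1256 and 299 and 1474, 2571 and 1472 (log2 ratio 1.24). That ratio was 0.55 without GV aged control 2-1, 0.92 without MII aged control 2, 2.62 without GV aged control 1 and 2.29 within batch 2 titles. In aged NMN mice, at 1007, 1197 and 378 and 1272, 2069 and 997, the groups overlapped with a ratio of 0.75 (0.21 without libraries 1 and 2). A read-through gene on the same strand, Gm20696, had 0.564% to 2.32% of the counts of Eif4e3.

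Eif4e, the standard cap-binding protein, was at 94.7 and 138 in GV young, 74.5 and 95.7 in GV aged and 126, 101 and 146 in GV aged NMN oocytes. MII levels were 51.9, 44.8 and 433 in young controls, 39.1, 35.5 and 43.3 in aged controls and 89.3, 296 and 122 in aged NMN mice. Eif4e2, which binds caps without joining eIF4G and acts as a repressor, was in GV oocytes at 39.9 and 33.1 in young controls, 81.5 and 56.7 in aged controls and 87.96, 118 and 84.98 in aged NMN mice. In MII oocytes it was scattered, at 111, 5.13 and 1.24 in young, 6.16, 0 and 0 in aged and 49.4, 0.621 and 20.005 in aged NMN oocytes. In aged controls the stages did not overlap (log2 ratio -4.52; -6.13 without MII aged control 1 and -5.85 within batch 2 titles).

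Eif4e1b, an oocyte-specific relative of eIF4E that takes part in repressing stored messages, was at 6.95 and 12.3 scaled CPM in GV young, 29.6 and 27.5 in GV aged and 35.6, 29.6 and 38.1 in GV aged NMN oocytes. In MII oocytes it was at 3.97, 11.5 and 3.51 in young and 8.27, 4.75 and 5.45 in aged controls, and at 58.9, 120.4 and 2.19 in aged NMN mice, where libraries 1 and 2 were the highest of all 16 and library 2-1 the lowest. The log2 ratio of NMN over aged controls in MII oocytes was 3.103 with and -1.17 without libraries 1 and 2. The genes of the whole table whose scaled CPM followed it most closely by rank over the 16 oocytes were Xlr4c (Spearman's rho 0.918), Selenow (0.912), Rrp15 (0.906), Lcmt1 (0.885) and Cfdp1 (0.874). These coefficients describe points that share 6 groups, their depth and their titles, and for all 5 genes MII aged NMN 1 and 2 were higher than any other MII oocyte.

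**Figure D3:**
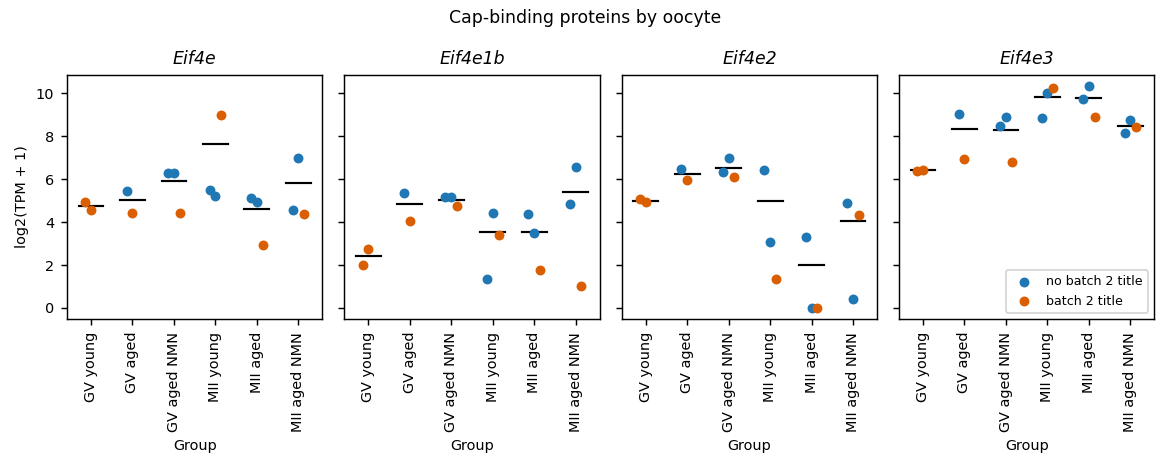
Log2 of TPM + 1 of the 4 cap-binding genes by group, 1 point per oocyte, coloured by title; horizontal bars are log2 of the group's mean TPM + 1. Eif4e3 is the highest of the 4 in each oocyte, and the Eif4e2 points spread most in MII oocytes.

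The scaffold eIF4G is encoded by Eif4g1 and Eif4g3, with Eif4g2 a relative that lacks the eIF4E-binding site. Eif4g1 (chr16:20668313-20692884, plus strand) had no count in either GV young oocyte, a pooled upper limit of 0.467 CPM before TMM scaling, and was at 31.2, 84.5 and 13.4 scaled CPM in MII young oocytes. With each GV oocyte set to the floor of 3 counts, the mean of the MII oocytes was at least 55.3-fold higher, and at least 28.7-fold without MII young control 2 and 17.3-fold within batch 2 titles. In aged controls it was at 17.3 and 27.5 in GV and 48.2, 47.8 and 30.5 in MII oocytes (log2 ratio 0.88, no overlap), and within batch 2 titles the ratio was 0.15. It was 1.23 without GV aged control 2-1 and 1.07 without MII aged control 2-1. In aged NMN mice, at 16.9, 37.98 and 0 and 67.6, 0 and 24.7, the stages overlapped, with GV aged NMN 2-1 and MII aged NMN 2 at 0. Eif4g3 and Eif4g2 were detected in all GV oocytes, and their log2 ratios in young controls were -0.46 and 1.59 with overlap.

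Among the helicases, Eif4a3, which serves in the exon junction complex rather than at the cap, had the largest share of family TPM in all 7 GV oocytes (66.5% to 88.4%). In MII oocytes its share was 0 to 65.2% and that of Eif4a1, the main helicase of the cap-binding complex, 15.3% to 97.7%. Eif4a1 was at 14.9 and 26.1 in GV and 44.97, 142 and 301 in MII young oocytes (log2 ratio 2.93; 2.13 without MII young control 2-1, 3.81 within batch 2 titles), and at 37.9 and 34.8 and 44.3, 64.8 and 48.3 in aged controls (0.52). Exons of 10 initiation factors also overlap genes of the tables on the other strand, among them Eif2b4 (Snx17), Eif3d (Gm17638), Eif2d (Rassf5), Eif5b (Rev1) and Eif6 (Gm16098), and whether the counting used strand is not given in the sources used here. The counts of Eif4a1 are uncertain for another reason, since 67.5% of its 31-base stretches occur in other genes.

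The helicase cofactors were lower in MII oocytes of each condition. Eif4h (chr5:134619721-134639490, minus strand) was at 36.3 and 77.5 in GV and 0, 0 and 0.619 in MII young oocytes, the lowest log2 ratio of the young comparison at -5.58 (-4.95 without GV young control 2-2). It was at 27.3 and 34.1 and 5.63, 4.50 and 0 in aged controls and at 25.1, 16.5 and 47.7 and 0.790, 0 and 9.06 in aged NMN mice, with all MII oocytes below all GV oocytes. Eif4b had log2 ratios of -1.89, -1.97 and -3.76, the last of which was -4.10 without libraries 1 and 2.

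At the last steps, Eif5b, the GTPase that joins the subunits, and Eif6, which keeps the large subunit from joining early, differed. Eif5b was at 886 and 843 in GV and 170.5, 694 and 562 in MII young oocytes (log2 ratio -0.86), and at 291 and 553 and 1002, 809.6 and 1463 in aged controls (1.37; 0.98 without GV aged control 1). Eif6 (chr2:155819832-155826925, minus strand) was at 217 and 137 and 58.1, 35.3 and 7.43 in young controls, 632 and 178 and 8.97, 32.3 and 22.9 in aged controls and 742, 554 and 362 and 35.2, 40.98 and 0.938 in aged NMN mice. Each MII oocyte was below each GV oocyte for Eif6, with log2 ratios of -2.36, -4.18 and -4.37. In aged controls the ratio was -3.0002 without GV aged control 1, -4.82 without GV aged control 2-1 and -2.91 within batch 2 titles, and with NMN it was -8.16 without MII aged NMN 1 and 2.

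Eif5a (chr11:69916714-69921958, minus strand) encodes a factor that carries the modified amino acid hypusine and helps ribosomes through difficult stretches and at stop codons. It was at 0.515 and 21.1 in GV young and 296, 543 and 147 in MII young oocytes, a log2 ratio of 4.80 with no overlap. It was 7.76 without GV young control 2-2, 3.90 without GV young control 1 and 3.65 within batch 2 titles, so its size rests on single oocytes. In aged controls (292 and 41.7 against 72.5, 319.8 and 55.6) and aged NMN mice (448, 381 and 19.99 against 237, 332 and 35.9) the stages overlapped, with log2 ratios of -0.16 and -0.49, the latter -2.94 without libraries 1 and 2. Eif2d, which can deliver initiator tRNA without eIF2, was at 19.3 and 16.2 in GV and 0, 2.18 and 4.96 in MII young oocytes (log2 ratio -2.47; -3.17 without MII young control 2-1 and -1.65 within batch 2 titles).

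Before the age and NMN comparisons in GV oocytes, the titles have to be set beside the values. Both GV young libraries carry a batch 2 title, while aged controls and aged NMN mice have 1 each and 1 and 2 libraries without one. Comparing the 3 GV libraries without a batch 2 title with the 4 that have one, 13 initiation factors (27.7%) were higher and 8 (17.0%) lower without overlap, against 18.2% and 8.06% of all genes. Eif5a was at 292 to 448 scaled CPM without the title and 0.515 to 41.7 with it. Eif4e3 was at 1007 to 1256 without and 246 to 378 with it, Eif2b2 at 84.6 to 126 and 11.8 to 19.4, and Eif2b1 at 583 to 987 and 166 to 215. Eif2s2 and Eif5b lay the other way, at 474 to 593 without and 1397 to 1929 with the title, and at 167 to 329.9 and 553 to 886. In MII oocytes the same split had 6 without, MII aged NMN 2 among them, and 3 with. It separated Eif3j2 alone, against 1.19% of all genes higher, and no gene of the 47 lower, against 1.04%. Past 2-fold by title in MII oocytes, 11 of the 47 were higher without the title and 6 lower, against 18.4% and 17.6% of all genes. In GV oocytes these were 13 and 10, against 25.2% and 17.4%. What the title stands for beyond its wording, and its part in the differences above and below, was not tested.

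**Figure D4:**
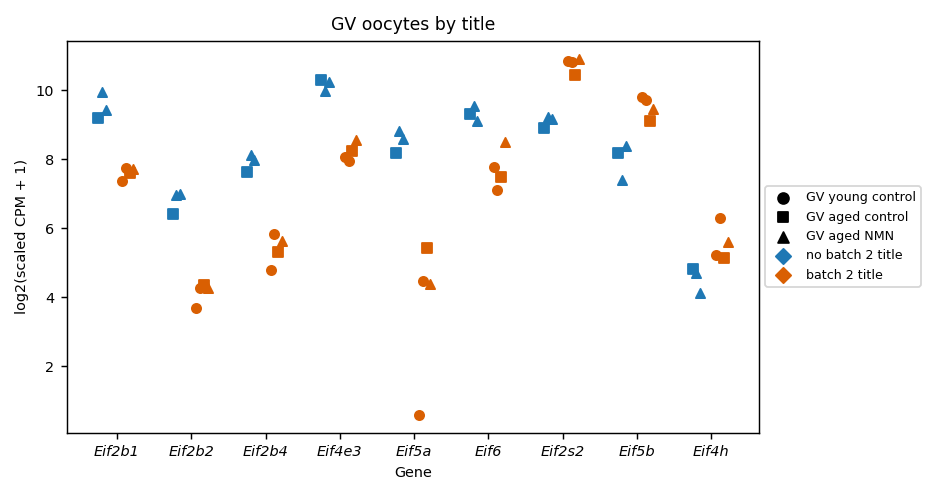
Log2 of scaled CPM + 1 in the 7 GV oocytes for 9 initiation factors that the titles separate without overlap; symbols are groups and colours show whether the title names batch 2. Aged control and aged NMN oocytes with a batch 2 title lie beside the young oocytes, as for Eif2b1 at 166 to 215 scaled CPM in the 4 of them.

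In GV oocytes 15 initiation factors (31.9%) were past 2-fold higher in aged than in young controls and 1 (2.13%) past 2-fold lower, against 31.1% and 12.2% of all genes. Without overlap 17 (36.2%) were higher and 5 (10.6%) lower, against 23.5% and 10.7%. The median log2 ratio was 0.53, beside 0.29 for all genes kept. Without GV aged control 2-1, which leaves a library of another title against the young ones, 8 were past 2-fold lower. All 5 eIF2B genes were past 2-fold higher, 3 of them without overlap. Eif2b1, Eif2b2 and Eif2b4 are also among the genes that the titles separate in GV oocytes. Eif2b4 was at 196 to 278 scaled CPM without a batch 2 title and 26.5 to 55.8 with it. Eif2b3 and Eif2b5 overlapped between the titles, and Eif2b5 had a median of 0 in GV oocytes. The part of the title in these ratios was not tested. The 7 immune cell markers summed to 2.83 and 0 scaled CPM in the young and 237 and 9.81 in the aged oocytes, with 1, 0, 2 and 1 of them detected, and their part in these differences was not tested.

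Within batch 2 titles 10 initiation factors were past 2-fold higher by age in GV oocytes and 1 lower, beside 15 and 1 over all oocytes. The share of all genes was not computed within these titles. Genes among the 10 that the naming rule chose are given here. With no overlap over all oocytes, the size of their ratios could change there but not the sign. Eif4g1 was at 17.3 and 27.5 scaled CPM in aged controls against 0 in both young oocytes, at least 28.8-fold higher with each young oocyte set to the floor of 3 counts, and the aged oocyte with a batch 2 title was the higher of the pair. Eif1ad, a protein with an eIF1A-like domain, was at 27.9 and 13.2 against 1.03 and 1.04 (log2 ratio 3.40, and 2.81 within batch 2 titles). Eif4e1b was at 29.6 and 27.5 against 6.95 and 12.3 (1.48, and 1.42). Eif5a was at 292 and 41.7 against 0.515 and 21.1 (3.83, and 1.85), with the young oocytes themselves far apart. It was 6.79 without GV young control 2-2, 2.92 without GV young control 1 and 4.63 without GV aged control 2-1.

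Other genes chosen by that rule had ratios carried by the aged control without a batch 2 title. Eif2b2 was at 84.6 and 19.4 in aged and 11.8 and 18.3 in young oocytes, a log2 ratio of 1.72 that was 0.34 within batch 2 titles. For Eif4e3, at 1256 and 299 against 266 and 246, the ratio was 1.60 and 0.22. Without GV aged control 2-1 these genes were at 2.42 and 2.29. On the lower side, Eif5b was at 291 and 553 against 886 and 843 (-1.03, and -0.64) and Eif2s2 at 474 and 1397 against 1836 and 1806 (-0.96, and -0.38; -1.94 without GV aged control 2-1). Eif4h, Eif1b and Eif1ax were also lower without overlap, with ratios of -0.87, -0.33 and -0.17; with library totals that of Eif1ax was 0.04, and in TPM those of Eif1ax and Eif1b were 0.30 and 0.03. That of Eif4h was -0.23 without GV young control 2-2, -1.31 without GV young control 1 and -1.03 without GV aged control 2-1.

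In MII oocytes 6 initiation factors (12.8%) were past 2-fold higher in aged than in young controls and 10 (21.3%) lower, against 8.48% and 22.5% of all genes. Without overlap 3 (6.38%) were higher and 5 (10.6%) lower, against 2.25% and 6.14%. The median log2 ratio was -0.35, beside -0.27 for all genes. Leaving out MII aged control 2 gave 10 higher and 17 lower.

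Eif5b was at 1002, 809.6 and 1463 scaled CPM in aged and 170.5, 694 and 562 in young MII oocytes, a log2 ratio of 1.196. It was 0.80 without MII young control 1, 0.93 without MII aged control 2-1 and 0.73 in TPM, and 1.38 within batch 2 titles. Eif5 was at 2931, 2999 and 5715 against 2525, 2247 and 1229.9, 0.96, with every aged oocyte above every young one, and 2.22 within batch 2 titles. The young oocyte with a batch 2 title was the lowest of the 6 and the aged one the highest.

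Eif2b2 was at 2.46, 0 and 0 in aged and 36.6, 7.00 and 2.68 in young MII oocytes, a log2 ratio of -3.17. It was -1.68 without MII young control 1, -4.04 without MII aged control 1 and -1.88 within batch 2 titles. Eif4e was at 39.1, 35.5 and 43.3 against 51.9, 44.8 and 433, and its ratio of -2.14 was -0.29 without MII young control 2-1, the oocyte at 433, and -3.29 within batch 2 titles. Eif2s1 was at 49.96, 42.8 and 1.45 against 152, 52.9 and 49.97 (-1.41); without MII young control 1 the ratio was -0.69 and without MII aged control 2-1 it was -0.86, and within batch 2 titles -4.38. For Eif2b2, Eif4e and Eif2s1 the groups did not overlap, but leaving out a single oocyte moved each ratio by over 1.5 times. Of the 9 cumulus and granulosa markers kept, 4 were past 2-fold lower in the aged MII oocytes and none higher, against 22.5% and 8.48% of all genes. Their sums overlapped between the groups, and their part was not tested.

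NMN treatment was compared with aged controls, which the age comparisons use as well, so both share those oocytes. In GV oocytes no initiation factor was past 2-fold higher with NMN and 2 (4.26%) were lower, Eif2b5 and Eif4ebp3, with means of 8.13 and 2.09 scaled CPM in aged controls; of all genes 8.54% and 12.3% were. Without overlap 8 (17.0%) were higher and 2 (4.26%) lower, against 5.68% and 8.12%. The median log2 ratio was 0.15, beside 0.01 for all genes, and -0.04 beside -0.18 with library totals. The 0 genes past 2-fold higher became 8 without GV aged control 1, 4 without GV aged control 2-1 and 6 without GV aged NMN 2-1.

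The genes that were higher with NMN without overlap differed by less than 2-fold. Eif2b3, the gamma subunit of eIF2B, was at 130.5, 90.3 and 75.7 scaled CPM with NMN and 56.1 and 51.03 in aged controls, a log2 ratio of 0.87 (1.03 without GV aged NMN 2-1). Eif3e was at 84.99, 59.1 and 65.8 against 37.5 and 41.7 (0.81). For Eif4e, Eif5, Eif4e2 and Eif1b the ratios were 0.54, 0.53, 0.48 and 0.40. Within batch 2 titles, 1 oocyte against 1, the 6 ratios were 0.56, 0.64, 0.61, 0.82, 0.58 and 0.53 in the order named. Their sign there was fixed by the lack of overlap, and only their size could differ. With library totals, which move the median of all genes by -0.19, each of the 6 ratios kept its sign.

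In MII oocytes 5 initiation factors (10.6%) were past 2-fold higher with NMN and 15 (31.9%) lower, against 14.7% and 33.1% of all genes. Without overlap 2 (4.26%) were higher and 5 (10.6%) lower, against 1.51% and 11.7%. The median log2 ratio was -0.41, beside -0.33 for all genes; with library totals these were -0.77 and -0.64. Without MII aged NMN 1 and 2 7 were higher and 19 lower, against 11.5% and 37.6% of all genes. Without MII aged NMN 2-1, 23 were lower.

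Eif4e was at 89.3, 296 and 122 scaled CPM with NMN and 39.1, 35.5 and 43.3 in aged controls (means 169 ± 111 and 39.3 ± 3.87, n = 3 each), a log2 ratio of 2.08. It was 1.61 without MII aged NMN 1 and 2, 1.41 without MII aged NMN 2 alone, 1.21 in TPM and 1.48 within batch 2 titles, and every NMN oocyte was above every control. Eif1 was at 178, 203 and 177 against 29.7, 67.6 and 101 (1.48; 1.41 without MII aged NMN 1 and 2, 0.56 in TPM and 0.81 within batch 2 titles). On the lower side Eif4b was at 9.49, 0 and 3.13 against 20.6, 13.3 and 12.7 (-1.67; -2.002 without libraries 1 and 2, -2.69 without MII aged NMN 1 alone and -1.73 within batch 2 titles). Eif4a2, the other helicase of the cap-binding complex, was at 18.97, 0.310 and 30.01 against 53.3, 47.3 and 30.5, a ratio of -1.36 that was -0.53 without MII aged NMN 1 and 2, -0.81 without MII aged NMN 2 alone and -2.07 without MII aged NMN 2-1. It was -0.02 within batch 2 titles.

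**Figure D5:**
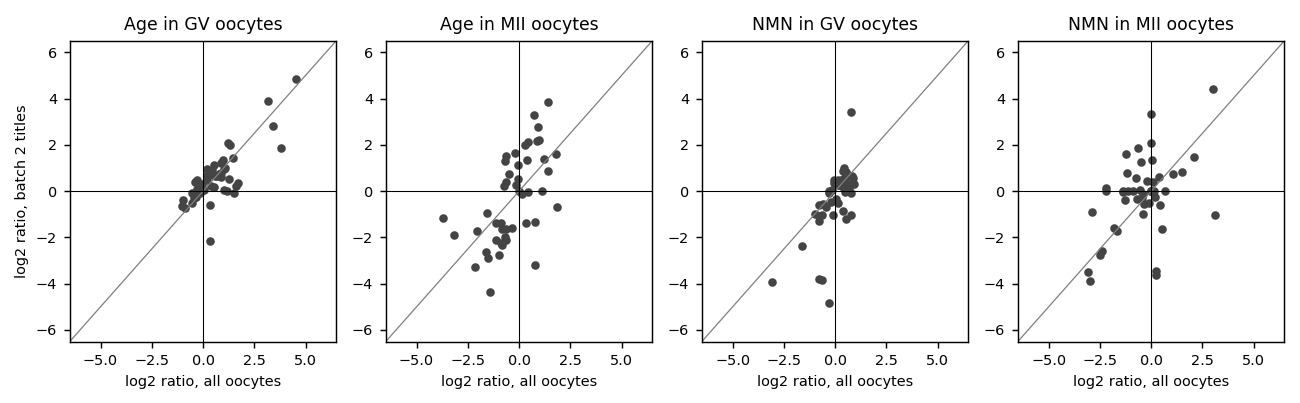
Log2 ratio of each of the 47 initiation factors over all oocytes (horizontal) against the ratio between the oocytes with a batch 2 title alone (vertical), 1 panel for each age or NMN comparison, with the diagonal marking equal ratios; the vertical values rest on 1 oocyte per group except 2 for GV young controls. In the panel for age in GV oocytes several genes far to the right lie near 0 on the vertical axis, Eif2b2 (0.34) and Eif4e3 (0.22) among them.

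Other parts of the translation machinery were read from lists of related genes. Of 78 cytosolic ribosomal protein genes kept, 65 were past 2-fold lower in MII oocytes of young controls, 67 in aged controls and 71 in aged NMN mice, with medians of -3.48, -3.33 and -3.84, beside 25.8%, 35.8% and 46.7% of all genes past 2-fold lower. The 8 elongation factor genes kept had 5, 7 and 7 past 2-fold lower and medians of -1.44, -2.33 and -3.30. Eef1d, part of the factor that recharges eEF1A, was at 312 and 288 scaled CPM in GV and 64.6, 4.20 and 3.097 in MII young oocytes. Without MII aged NMN 1 and 2, 66 ribosomal protein and 6 elongation factor genes were lower in aged NMN mice, with medians of -3.27 and -4.09. The initiation factor medians of -0.51, -0.84 and -1.09 were thus the least low of the 3 lists in each condition.

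Beside the lists below, 36.3% of all genes were past 2-fold higher and 25.8% lower in MII oocytes of young controls. These shares were 16.9% and 35.8% in aged controls and 16.9% and 46.7% in aged NMN mice (16.7% and 52.3% without libraries 1 and 2). The lists are small, and their counts are not read as results about the pathways. Of the 8 genes kept for the eIF2 kinases and the integrated stress response, 4 were past 2-fold higher and 2 lower in MII oocytes of young controls, 1 and 2 in aged controls and 3 and 2 in aged NMN mice (2 and 3 without libraries 1 and 2). Eif2ak1, the heme-regulated eIF2 kinase, was at 2.06 and 20.1 scaled CPM in GV and 102, 138 and 147 in MII young oocytes. It was also higher in GV aged controls, at 80.4 and 68.2. Ddit3, a transcription factor of prolonged stress, was at 159, 182 and 188 in GV and 0, 0 and 47.2 in MII aged NMN oocytes. Of the 14 genes kept for mTOR and eIF4E regulation, 4 were past 2-fold higher in MII oocytes in each condition and 2, 2 and 3 lower; without libraries 1 and 2 these were 6 and 4 in aged NMN mice. Mtor, the kinase that frees eIF4E from its inhibitors, was at 37.3, 18.5 and 34.9 in MII aged controls and 0, 0 and 4.06 in MII aged NMN oocytes.

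Of 17 genes kept for poly(A) binding and cytoplasmic polyadenylation, 7 were past 2-fold higher and 1 lower in MII oocytes of young controls, 4 and 6 in aged controls, and 4 and 7 in aged NMN mice (2 and 8 without libraries 1 and 2). The all-gene shares for this and the next lists were again 36.3% and 25.8%, 16.9% and 35.8%, and 16.9% and 46.7%. Paip1, which bridges the poly(A)-binding protein and the cap complex, was at 102 and 505 scaled CPM in GV and 563, 876 and 7816 in MII young oocytes. Of 10 genes kept for termination and recycling, 3 were past 2-fold higher and 3 lower in young controls, 1 and 6 in aged controls, and 1 and 4 in aged NMN mice, with or without libraries 1 and 2. Of 4 scanning helicases, 3 were past 2-fold higher in young controls, none in aged controls and 1 in aged NMN mice, and none was lower, although 2 were in aged NMN mice without libraries 1 and 2. Dhx29, a helicase that scanning ribosomes need on structured leaders, was at 13.1 and 24.5 in GV and 67.6, 70.3 and 25.8 in MII young oocytes.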

How the data were processed

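RNA from single mouse oocytes, made into libraries with the TruePrep kit after the nucleus had been pelleted, per the labels' protocols, was sequenced. Per the submitters' processing notes, the tools were TopHat2 2.1.1, Cufflinks, FastQC 0.11.8 and Trim Galore 0.4.5, with the mouse build mm10 or GRCm38. The deposited gene tables hold the authors' expected counts and TPM per gene, with the column names of an RSEM table; which step made them is not given in the sources used here. FPKM was not used.

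Identical libraries were counted once and the library under 100000 counts was left out. Expected counts were rounded, genes were filtered with filterByExpr (minimum count 10), and CPM were scaled by TMM in edgeR 4.0.16 under R 4.3.3. RLE size factors came from DESeq2 1.42.0. Tables and figures were made with Python 3.11.15, pandas 2.3.3, numpy 2.4.6, scipy 1.17.1 and matplotlib 3.10.9. Symbols came from GENCODE vM21, and 495 genes had none. Ratios are log2 of group means with 1 CPM added. The scripts were tested on simulated data. Exact Poisson intervals (95%) and floors of 3 counts cover counting error only. The fractional share counts genes more than 0.005 from a whole number.

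Per comparison, up to 6 initiation factors per direction were named by the largest ratios. They needed a mean of at least 10 scaled CPM in 1 group and no overlap. Values of every oocyte are given for these, except Eif1b, which has ratios and TPM ranges only. Such values are also given for the cap-binding family and for its inhibitors that the filter kept. Others were named after their values were seen. Members and lists were chosen with earlier results of these data known. Alternatives covered scaling, TPM, the filter, the added CPM, means of log2 values, batch 2 titles and single oocytes left out. Leaving out MII aged NMN 1 and 2, the bounds with 3 counts in each library, the all-gene medians under other scalings and the other settings for genes lower in every MII oocyte were chosen after seeing the data.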

Additional observations from a re-analysis of the deposited data

Results flagged for a closer look

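For 5 initiation factors the same contrast had opposite directions in different groups, with no overlap between oocytes on either side. The difference between the directions was not tested. Eif5b had a log2 ratio of aged over young of -1.03 in GV oocytes (means 422 and 864 scaled CPM) and of 1.196 in MII oocytes (means 1091 and 476). Read by stage, the same oocytes gave -0.86 for MII over GV in young and 1.37 in aged controls. Eif2b2 had an age ratio of 1.72 in GV oocytes and -3.17 in MII oocytes, and Eif3l one of 0.48 and -0.98. Eif1a, which did not exceed 6.69 scaled CPM, had an age ratio of 1.07 in GV and -2.03 in MII oocytes, and a maturation ratio of 2.03 in young and -1.07 in aged controls. Eif2b3 had a maturation ratio of 1.07 in young controls and -2.72 in aged NMN mice, which was -1.25 without MII aged NMN 1 and 2. Within batch 2 titles the age ratio of Eif2b2 in GV oocytes was 0.34.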

How the results depend on the processing

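RLE size factors, 0.5 CPM added and no filter on low counts moved no median and no count of initiation factors past 2-fold by more than the limits set (1.5 times for a count). In TPM the median log2 ratio was -0.010 for maturation in young controls, 0.78 for age and -0.089 for NMN in GV oocytes. Library totals gave -0.040 for NMN in GV oocytes. Keeping the library of 5008 counts gave -0.31 for maturation in aged controls, -0.030 for age and 0.73 for NMN in GV oocytes. Batch 2 titles alone gave -1.55 for maturation in aged controls.

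Counts past 2-fold moved as follows. In TPM, 8 were higher in maturation of aged controls, 2 in that of aged NMN mice, 3 with age in MII oocytes and 3 with NMN in MII oocytes, where 24 were lower. With library totals 3 were higher in maturation of aged NMN mice, and in GV oocytes 0 were lower with age and 7 with NMN. With 5 CPM added 2 were higher with age in MII oocytes, 1 lower with NMN in GV and 9 lower with NMN in MII oocytes. With differences of mean log2 values 2 were lower with age in GV oocytes, and 1 was higher and 5 lower with NMN. With the library of 5008 counts 11 were higher in maturation of aged controls, 6 higher and 6 lower with age in GV oocytes, and 14 higher with NMN. Within batch 2 titles 14 were higher and 21 lower with age in MII oocytes, 2 higher and 11 lower with NMN in GV oocytes, and 8 higher with NMN in MII oocytes. Eif1 in maturation of aged NMN mice turned to -0.012 in TPM.

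Leaving out 1 oocyte at a time, maturation in young controls had medians of -0.67 to 0.00 with 11 to 15 higher and 14 to 22 lower. In aged controls they were -1.04 to -0.69 with 4 to 9 and 20 to 24, and in aged NMN mice -1.80 to -1.04 with 5 to 7 and 24 to 26. Age gave 0.42 to 0.90 with 10 to 20 and 1 to 8 in GV, and -0.47 to -0.23 with 6 to 10 and 10 to 17 in MII oocytes. NMN gave 0.00034 to 0.25 with 0 to 8 and 3 to 7 in GV, and -0.86 to -0.10 with 4 to 7 and 13 to 23 in MII oocytes. The cause of these shifts was not tested. No paired analysis was possible because the results come from no test, and the labels tie no oocyte of one group to an oocyte of another. Of the 58 ratios of single genes chosen by the naming rule, 32 moved by over 1.5 times within batch 2 titles and 21 in TPM. With 5 CPM added 16 moved that far, with 0.5 CPM added 8 and with differences of mean log2 values 6. Depth limits genes near the floor of 3 counts.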
